A study of Sus scrofa with 34 samples.

Results

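Mitochondrial beta-oxidation enzymes were followed in the liver and ileum of piglets fed a phytogenic feed additive (PFA), oxidized oil (OO) or both. The rule took every gene of the count tables whose pig symbol was ACADVL, ACADM, ACADS, HADHA, HADHB, HADH, ACAA2, DECR1, ETFDH or ECI1. Of these 10 genes, 9 had a row among the 25880 genes of the tables, and ECI1, an isomerase for unsaturated fatty acids, was not analysed here. All 9 passed the filter on low counts in both tissues. The rule uses their names and no measured value, but the enzymes were chosen with earlier results of these data known. The study had already reported lipid oxidation among the functions of liver genes raised by OO.

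The piglets were weaned crossbreds, sampled at day 28, and none carried a transgene. Liver was measured in 24 pigs: 6 fed a control diet, 6 fed the control diet with PFA, a blend based on essential oils, 6 fed a diet with OO, and 6 fed OO with PFA. Ileum was measured in 10 of the liver pigs, 5 control and 5 PFA, so no OO pig has an ileum value. The study's methods give 1 pen for each diet, which means that effects of pen and of diet cannot be told apart. The OO diets held heated rapeseed oil as an added fat and the other diets little oil, so more dietary fat and its oxidation cannot be told apart either. A pig's name joins a letter code of its diet (control pigs carry C, PFA pigs P, OO pigs OO, OO + PFA pigs OP) and the number in its library title.

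Beta-oxidation shortens a fatty acid, bound to coenzyme A, by cycles of dehydrogenation, hydration, a further dehydrogenation and thiolytic cleavage. In mitochondria the first dehydrogenation is made by acyl-CoA dehydrogenases of different chain length preference, and the later steps by the membrane-bound trifunctional protein for long chains and by matrix enzymes for shorter ones. The released acetyl-CoA feeds the citric acid cycle and, in liver, ketone body synthesis. In many mammals the genes are known targets of the nuclear receptor PPAR-alpha, and ketone body synthesis is known to be low in pigs.

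Between 19839171 and 42446834 read pairs per library were counted on genes in the 23 liver libraries used, and between 18772230 and 24338165 in the ileum. With no fewer than 1350 counts of any of the 9 enzymes in any liver library used, counting error was small beside the spread between pigs. The liver library of pig OP-77 was left out, as in the study, which suspected degraded RNA. In OP-77 there were 36.6 read pairs with several alignments per 100 counted, against 3.02 to 14.7 in the other liver libraries. Levels are in CPM, read counts scaled to library size with TMM factors within the liver or the ileum. Comparisons between the tissues used TMM factors over the 20 libraries of both tissues together. The 7 hepatocyte markers summed to at least 97163 CPM in each liver library used and at most 4148 in each ileum library. The 7 enterocyte markers summed to at least 16629 CPM in the ileum and at most 595 in the liver, so both tissue labels hold. A gene was called where the two-sided quasi-likelihood test of edgeR, after Benjamini-Hochberg adjustment over all genes tested, gave a p no larger than 0.05.

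Under OO, 5 of the 9 enzymes rose in the liver against the control diet, and they span the steps from the long-chain dehydrogenase to the thiolase and the electron acceptor. ACAA2, ACADVL, HADHA, HADHB and ETFDH were 3.49-fold, 2.72-fold, 2.14-fold, 1.81-fold and 1.61-fold higher, and no control pig reached the lowest OO pig in any of these 5 genes. The share of all genes tested whose groups do not overlap was not counted, here or in the later comparisons. None of the 9 fell. Of the 13831 genes tested, 1.37% were called higher, and the median log2 fold change was 0.69 over the 9 enzymes and 0.06 over all genes tested. ACADM and ACADS missed the threshold, and the fitted values of HADH and DECR1 were below 0 without being called. With the percent of read pairs outside genes as a term in the fit, ACADVL and HADHA alone of the 5 were still called, and with the left-out library of OP-77 included, HADHB and ETFDH were not. Bulk liver was measured, so a change in the number of cells of a type and a change in RNA per cell cannot be told apart.

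Acyl-CoA dehydrogenases make the first step. ACADVL, the enzyme of very long chains at the inner membrane (ENSSSCG00000017947, chromosome 12, 52573521 to 52581755 of Sscrofa11.1, forward strand), ran from 72.6 CPM in C-71 to 109 in C-85 in the control pigs (median 90.5). In the OO pigs it ran from 177 CPM in OO-97 to 371 in OO-130 (median 241). The groups did not overlap. Its log2 fold change was 1.44 (SE 0.16, adjusted p = 5.34e-06), and its p had rank 10 among all genes tested, counted from the smallest.

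ACADM, which takes medium chains (ENSSSCG00000003776, chromosome 6, 137541481 to 137575544, reverse strand), ran from 148 to 316 CPM in the control pigs (median 249) and from 274 to 517 in the OO pigs (median 399). OO-99 and OO-102 lay below the highest control pig, C-100. The log2 fold change of 0.66 (SE 0.18) had an adjusted p of 0.0548. ACADM was called without C-100, P-95, OO-99 or OO-102, with adjusted p from 0.0371 to 0.0483, and with DESeq2 (adjusted p = 0.0218).

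ACADS, for short chains (ENSSSCG00000009916, chromosome 14, 40642810 to 40656922, forward strand), ran from 122 to 182 CPM in the control pigs (median 142) and from 143 to 328 in the OO pigs (median 214). The overlap was due to OO-97 and OO-74, the lowest OO pigs at 143 and 148 CPM. The log2 fold change was 0.56 (SE 0.16, adjusted p = 0.0581), and the adjusted p was 0.0227 without OO-74, 0.0154 without OO-97 and 0.0291 with DESeq2. In a single test over all 4 diets ACADS was among the 6 enzymes called (adjusted p = 0.0302), together with the 5 genes above, where 3.66% of all genes were called. That count was 5 without C-100, C-110, P-107 or OO-99.

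HADHA and HADHB encode the alpha and beta subunits of the trifunctional protein: the alpha subunit hydrates and dehydrogenates long chains, and the beta subunit is the thiolase. The genes lie head to head on chromosome 3, HADHB (ENSSSCG00000008569, 112712894 to 112753121) on the reverse and HADHA (ENSSSCG00000008571, 112753343 to 112797627) on the forward strand. The 221 bases between their annotated starts (chr3:112753122-112753342 of Sscrofa11.1, forward strand, from RefSeq's assembly) are shown because both genes start from them:

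HADHB to HADHA interval: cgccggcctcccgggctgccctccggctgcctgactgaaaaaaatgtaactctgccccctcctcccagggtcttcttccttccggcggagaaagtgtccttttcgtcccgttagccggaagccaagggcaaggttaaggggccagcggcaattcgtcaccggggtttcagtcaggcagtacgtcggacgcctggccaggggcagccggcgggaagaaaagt

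The interval has a GC content of 62.9%, against a median of 57.2% over the 250 bases before each of 20638 annotated gene starts. It held no match, on either strand, to the GC box GGGCGG, to the box CCAAT or to the motif TATAAA. Of those windows 44.5% held GGGCGG, 32% held CCAAT and 10.4% held TATAAA. HADHA ran from 134 to 228 CPM in the control pigs (median 182) and from 312 to 547 in the OO pigs (median 353). Each OO pig was above each control pig, with a log2 fold change of 1.09 (SE 0.16, adjusted p = 2.31e-04).

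HADHB ran from 86.1 CPM in C-80 to 179 in C-110 (median 147) in the control pigs, and from 197 in OO-99 to 297 in OO-130 (median 261) in the OO pigs. Here too the groups did not overlap (log2 fold change 0.86, SE 0.16, adjusted p = 0.00329). The log2 ratio of HADHA to HADHB differed by 0.21 between OO and control, with an exact permutation p of 0.223 (6 against 6 pigs, two-sided, adjusted p = 0.259 over the 36 pairs of enzymes).

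HADH, the hydroxyacyl-CoA dehydrogenase of the matrix for shorter chains (ENSSSCG00000009150, chromosome 8, 113952561 to 114005510, reverse strand), ran from 199 to 295 CPM in the control pigs (median 272) and from 184 to 231 in the OO pigs (median 216). All 6 OO pigs lay below the control mean, and the groups overlapped (log2 fold change -0.28, SE 0.12, adjusted p = 0.176).

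ACAA2, the thiolase that releases acetyl-CoA (ENSSSCG00000004510, chromosome 1, 99284467 to 99310759, reverse strand), ran from 88.4 CPM in C-85 to 194 in C-92 in the control pigs (median 145). In the OO pigs it ran from 260.0 CPM in OO-99 to 758 in OO-130 (median 534). The groups did not overlap, but the SD among the OO pigs was 207 CPM. The log2 fold change was 1.80 (SE 0.37, adjusted p = 0.00887), the largest of the 9 and also the least precise.

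DECR1, a dienoyl-CoA reductase needed for polyunsaturated fatty acids (ENSSSCG00000006126, chromosome 4, 46731359 to 46767427, reverse strand), ran from 195 to 308 CPM in the control pigs (median 259) and from 171 to 311 in the OO pigs (median 243). One group lay within the range of the other but for OO-99, OO-102 and OO-97. Its log2 fold change was -0.11 (SE 0.18, adjusted p = 0.766).

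ETFDH passes electrons from the acyl-CoA dehydrogenases to ubiquinone (ENSSSCG00000008877, chromosome 8, 47608499 to 47655889, forward strand). It ran from 81.1 CPM in C-80 to 121 in C-110 in the control pigs (median 115) and from 135 in OO-99 to 194 in OO-130 in the OO pigs (median 180.0). The groups did not overlap, and ETFDH had a log2 fold change of 0.69 (SE 0.13, adjusted p = 0.00285).

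**Figure D1:**
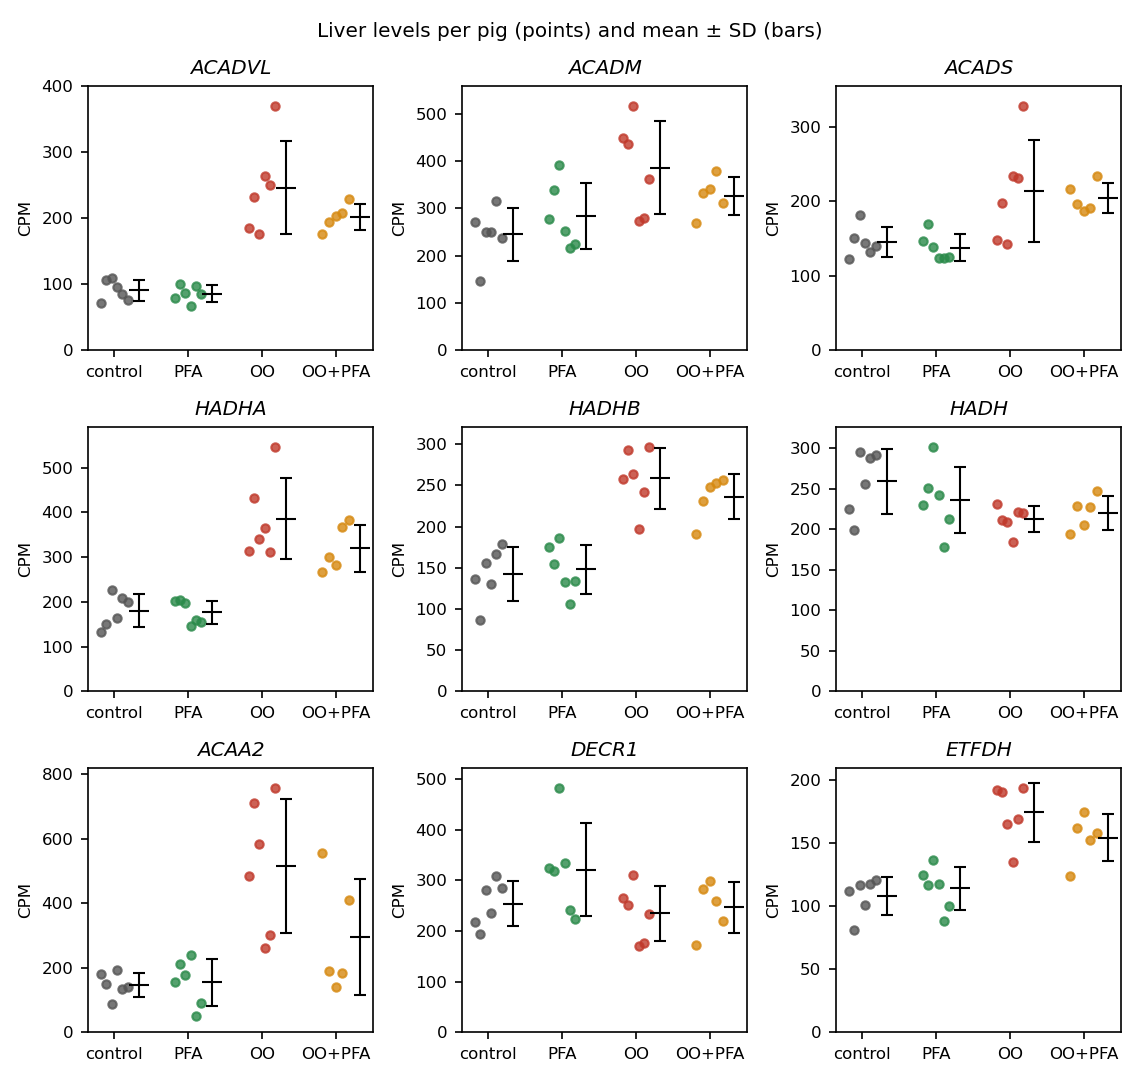
Liver levels of the 9 enzymes in CPM (vertical axes from 0) for each pig (points) of the control, PFA, OO and OO + PFA diets, with the mean and SD of each diet as bars. ACADVL, HADHA, HADHB, ACAA2 and ETFDH show no overlap of OO with control pigs, while HADH and DECR1 overlap in all diets.

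The enzymes did not move by equal amounts. The log2 ratio of each pair of the 9 was compared between 6 OO and 6 control pigs by an exact two-sided permutation test, chosen after the values were seen, and 20 of 36 pairs passed at 0.05 after adjustment over the 36. The smallest p this design allows is 0.00216. The 36 pairs reuse the same 9 genes, so they are not independent, and pairs of other genes were not tested. GC content of the exons differs between the enzymes, as given below, and its part in these ratios was not tested. HADH differed from 7 of the other 8 enzymes and DECR1 from 6, and HADH and DECR1 did not differ from each other beyond the spread (difference of log2 ratios -0.15, exact p = 0.307, adjusted p = 0.346). ACADVL rose more than ACADS, by 0.91 on the log2 scale (exact p = 0.00216, adjusted p = 0.00599), although both dehydrogenate acyl-CoA. ACAA2 rose more than ETFDH by 1.04 (exact p = 0.00866, adjusted p = 0.0195), and its difference from ACADVL, -0.32 for ACADVL minus ACAA2, was within the spread (exact p = 0.403, adjusted p = 0.439).

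Adding PFA to the oxidized oil left 4 of the 9 enzymes called higher than in the control pigs, where 4.09% of all genes were called higher. OO + PFA and OO were each set against the same 6 control pigs, so these comparisons share them. ACADVL was at 176 CPM in OP-79, 195 in OP-98, 204 in OP-105, 208 in OP-126 and 230.0 in OP-137, each above the highest control pig. Its log2 fold change was 1.16 (SE 0.16, adjusted p = 3.04e-04), against 1.44 in OO.

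HADHA was at 267 CPM in OP-79, 301 in OP-98, 282 in OP-105, 368 in OP-126 and 383 in OP-137, all above the control pigs, with a log2 fold change of 0.83 (SE 0.16, adjusted p = 0.00958). HADHB was at 191, 232, 249, 253 and 257 CPM in the same pigs, again all above the control pigs, with a log2 fold change of 0.73 (SE 0.17, adjusted p = 0.0189). In both subunits OP-79 was the lowest.

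ETFDH was at 124 CPM in OP-79, 162 in OP-98, 175 in OP-105, 153 in OP-126 and 158 in OP-137, and its log2 fold change was 0.51 (SE 0.13, adjusted p = 0.0294). This call was lost without C-71, C-100, OP-98, OP-105, OP-126 or OP-137, with adjusted p from 0.0523 to 0.0595, and with the percent of pairs outside genes as a term (0.0526). ACADS was at 216, 197, 186, 190.4 and 234 CPM in OP-79, OP-98, OP-105, OP-126 and OP-137, all above the control pigs, but was not called (log2 fold change 0.50, SE 0.17, adjusted p = 0.0761). Without OO-97 or OO-130, which change the shared estimate of the spread, its adjusted p was 0.0450 and 0.0347.

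ACADM was at 269 CPM in OP-79, 332 in OP-98, 340.3 in OP-105, 379 in OP-126 and 311 in OP-137, of which OP-79 and OP-137 lay below the highest control pig, and was not called (log2 fold change 0.41, SE 0.19, adjusted p = 0.204). With gene GC content taken into account it was called, with adjusted p of 0.0483 or 0.00817 by the method.

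ACAA2 also varied widely within other diets, in the PFA pigs from 50.6 CPM in P-134 to 240.1 in P-107, and it split the OO + PFA pigs. It was at 557 CPM in OP-79 and 411 in OP-137 but at 189 in OP-98, 184 in OP-126 and 141 in OP-105, which lay within the range of the control pigs. Its log2 fold change of 1.00 (SE 0.38) had an adjusted p of 0.112. OP-79, highest in ACAA2, was the lowest of the 5 pigs in ACADVL, ACADM, HADHA, HADHB, HADH, DECR1 and ETFDH.

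Against the PFA pigs, which share no pig with the control diet, OO + PFA was higher in 3 enzymes, where 1.24% of all genes were called higher. The log2 fold changes were 1.23 for ACADVL (SE 0.16, adjusted p = 1.29e-04), 0.85 for HADHA (SE 0.16, adjusted p = 0.00697) and 0.67 for HADHB (SE 0.17, adjusted p = 0.0379). The PFA pigs had ranged from 66.5 to 101 CPM in ACADVL, from 147 to 204 in HADHA and from 106 to 186 in HADHB, and no OO + PFA pig lay within these ranges. The call of HADHB was lost without P-75, P-107, P-134, OP-98, OP-105, OP-126 or OP-137, with adjusted p from 0.0599 to 0.104, with RLE scaling (0.0512) and with no filter on low counts (0.0641). ETFDH (log2 fold change 0.44, adjusted p = 0.0863), ACADS (0.57, adjusted p = 0.0790) and ACAA2 (0.94, adjusted p = 0.151) were not called. ACADS had an adjusted p of 0.0468 without OO-97 and 0.0345 without OO-130.

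**Figure D2:**
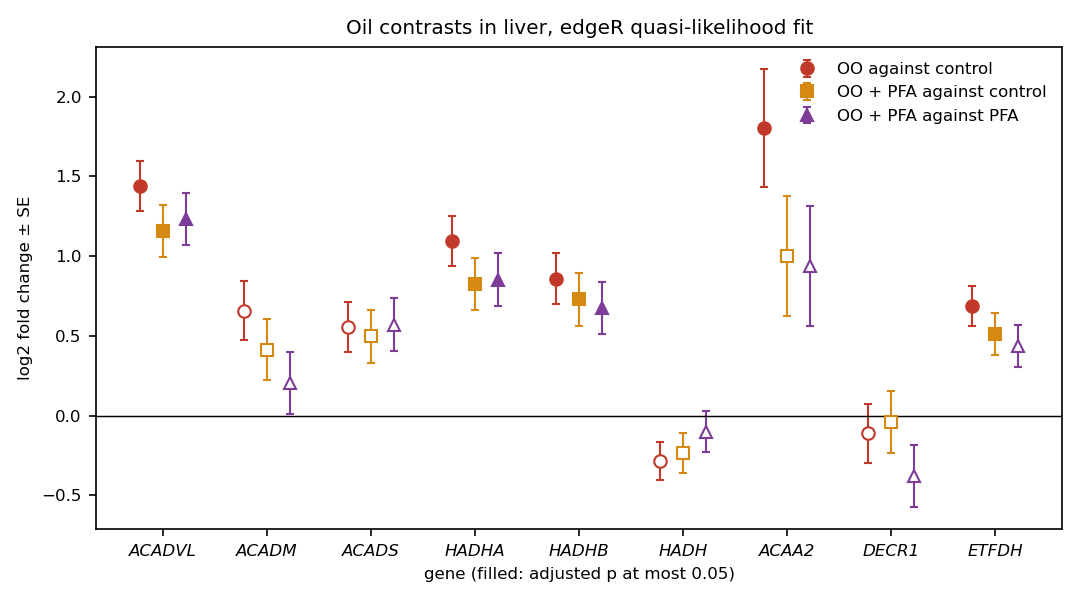
Log2 fold change with its SE (vertical axis) of each enzyme (horizontal axis) for OO against control, OO + PFA against control and OO + PFA against PFA in liver. Filled symbols are called genes: ACADVL, HADHA and HADHB are filled in all 3 comparisons, and HADH and DECR1 lie below 0 in all 3 without being called.

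Setting OO + PFA directly against OO asks whether PFA changed the levels under oil. None of the 9 enzymes was called, and neither was any other gene (0% of 13831). At an unadjusted p under 0.05 there were 1176 genes, and DESeq2 called 31, none of them an enzyme. The fitted values lay below 0 in 7 of the 9 enzymes, from -0.80 in ACAA2 (SE 0.38, unadjusted p = 0.0476, adjusted p = 0.586) to -0.06 in ACADS. Of all 13831 genes tested, 7401 lay below 0 too, and the 9 enzymes are not independent of each other. For ACADVL the value was -0.28 (SE 0.16, adjusted p = 0.629) and for HADHA -0.27 (SE 0.17, adjusted p = 0.653).

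PFA without oil was followed by no call in the liver (0% of 13831 genes; 1522 genes at an unadjusted p under 0.05, 0 of them an enzyme; 18 genes by DESeq2, none an enzyme). The largest value among the enzymes was that of DECR1, with a log2 fold change of 0.34 (SE 0.18, adjusted p = 0.506). DECR1 ran from 224 to 483 CPM in the PFA pigs (median 322), and 4 of the 6 lay above the highest control pig. Log2 fold changes of the other 8 enzymes lay between -0.13 and 0.21. The difference between the oil effects with and without PFA was not called for any gene in edgeR (0%; 1881 genes at an unadjusted p under 0.05, 0 of them an enzyme; 150 genes by DESeq2, none an enzyme). It was -0.87 on the log2 scale for ACAA2 (SE 0.52, adjusted p = 0.470) and -0.45 for ACADM (SE 0.27, adjusted p = 0.461).

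Of the 9 other enzymes and electron carriers of the pathway, 2 were called higher in OO against control and none lower. ACADL, the long-chain acyl-CoA dehydrogenase, rose from 37.3 ± 8.46 CPM (SD, n = 6) to 89.6 ± 16.5 (SD, n = 6), a log2 fold change of 1.26 (SE 0.20, adjusted p = 6.80e-04). ACAD11, another acyl-CoA dehydrogenase, had a log2 fold change of 0.64 (adjusted p = 0.0446). ETFB, a subunit of the carrier that hands electrons to ETFDH, had 0.86 (SE 0.25, adjusted p = 0.0661), and its partner subunit ETFA 0.19.

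The hydratase ECHS1, which follows ACADM and ACADS in the cycle, had a log2 fold change of 0.11 (adjusted p = 0.737) at 633 ± 124 CPM (SD, n = 6) in the control pigs. The isomerase ECI2 had 0.15, HSD17B10 had -0.09, ACAD9 had 0.10 and ACAD10 had -0.11, none of them called. The list's median was 0.15, so its middle lay near that of all genes (0.06).

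The carnitine shuttle brings fatty acids into mitochondria, and 4 of its 5 genes were called higher in OO. CPT1A, its rate-limiting outer membrane enzyme, had a log2 fold change of 1.60 (SE 0.15, adjusted p = 4.93e-07), CPT2 had 1.44 (SE 0.18, adjusted p = 3.26e-05) and the carrier SLC25A20 had 0.93 (SE 0.14, adjusted p = 4.64e-04). The remaining pair, named after their values were seen, were the acetyltransferase CRAT, called with 1.26 (SE 0.22, adjusted p = 0.00229), and CPT1B, not called with 0.88 (SE 0.24, adjusted p = 0.0517). Of 9 peroxisomal beta-oxidation genes tested, 2 were called higher, ECH1 with 0.80 (SE 0.13) and ACAA1 with 0.69 (SE 0.15), and ACOX2 had -0.26 (adjusted p = 0.227).

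Further mitochondrial lists held 1 call in OO against control. Of the 3 acyl-CoA dehydrogenases of amino acid breakdown none was called, with log2 fold changes from -0.43 in GCDH (adjusted p = 0.0619) to 0.16, nor was any of the 4 propionate genes. Of 13 citric acid cycle genes 1 was called, MDH2 with 0.65 (SE 0.15, adjusted p = 0.0175), and all 13 values lay above 0 (median 0.22). Of all 13831 genes tested, 7978 lay above 0. Of 8 genes of mitochondrial mass none was called (median 0.18), with TOMM40 at 0.57 (adjusted p = 0.148).

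Among 8 regulators of these genes none was called in OO against control. PPARA itself had a log2 fold change of -0.64 (SE 0.28, adjusted p = 0.196), its partner RXRA had 0.57 (SE 0.29, adjusted p = 0.263), and the corepressor NCOR1 had 0.29 (adjusted p = 0.367). In OO + PFA 1 of the 8 was called higher than in the control pigs, NCOR1 with 0.66 (SE 0.19, adjusted p = 0.0432), and 1 higher than in the PFA pigs, the coactivator PPARGC1B with 1.69 (SE 0.41, adjusted p = 0.0358), which was named after its values were seen. These counts stand beside 4.09% and 1.24% of all genes. For OO against control, each of these lists is read against the 1.37% of all genes that were called higher.

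**Figure D3:**
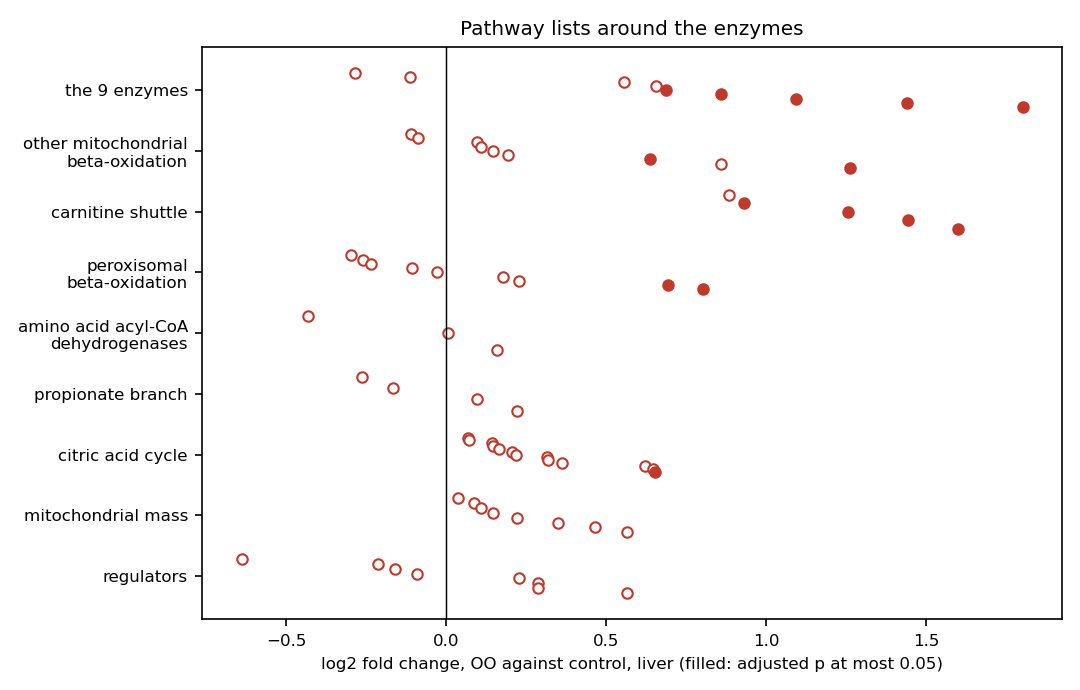
Log2 fold change of OO against control in liver (horizontal axis) for the genes of each list (rows), one circle per gene, filled where the gene was called. Filled circles are 5 of the 9 enzymes, 4 of 5 carnitine shuttle genes, 2 of 9 in each of the other mitochondrial and the peroxisomal lists, and 1 of 13 citric acid cycle genes.

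PPAR-alpha binds with RXR to a direct repeat, AGGTCANAGGTCA. In the 250 bases before the annotated start of each of the 9 genes, this repeat had no match on either strand, and 0.0242% of 20638 such windows held it. AGGNCANAGGNCA, which allows any base at position 4 of each hexamer, also had none, against 0.233% of windows. The single hexamer AGGTCA occurred in 1 of the 9 genes, DECR1, against 12.3% of windows, and GGGCGG, the GC box, occurred in 7, all but HADHA and HADHB, against 44.5%. The windows of HADHA and HADHB share the 221 bases between these genes, so they are not separate. GC content of the 9 windows was 56.8% to 71.2%, against a median of 57.2% over all windows, and was not taken into account. The windows of ACADVL, with the smallest adjusted p in OO, and of DECR1, which was not called, are shown 5′ to 3′ in the direction of the gene, from Sscrofa11.1, with GGGCGG or its reverse complement in capitals for ACADVL and the hexamer AGGTCA or its reverse complement in capitals for DECR1:

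ACADVL, chr12:52573271-52573520, forward strand: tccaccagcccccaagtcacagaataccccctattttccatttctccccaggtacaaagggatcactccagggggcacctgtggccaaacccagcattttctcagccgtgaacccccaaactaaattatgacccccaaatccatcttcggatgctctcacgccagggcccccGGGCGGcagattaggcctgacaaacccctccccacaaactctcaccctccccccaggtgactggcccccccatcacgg

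DECR1, chr4:46767428-46767677, reverse strand: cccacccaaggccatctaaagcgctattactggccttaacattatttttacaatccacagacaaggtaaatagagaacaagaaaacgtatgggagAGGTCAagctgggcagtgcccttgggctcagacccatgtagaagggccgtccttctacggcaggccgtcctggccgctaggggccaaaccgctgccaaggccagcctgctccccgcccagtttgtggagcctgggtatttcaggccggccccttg

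A match is a run of letters and no site of binding, and annotated starts can lie away from those used in liver.

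Over the 23 liver libraries, 7 of the 9 enzymes followed each other. Pearson's r of a gene's log2 CPM with the mean of the other 8 was 0.94 for HADHB, 0.93 for ETFDH, 0.86 for HADHA, 0.78 for ACADM, 0.66 for ACADVL and ACAA2 and 0.57 for ACADS. It was -0.01 for DECR1 and -0.04 for HADH. These values describe libraries that share diets and depth, and the diets alone give genes that rose under oil a common pattern.

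The genes outside the 9 whose log2 CPM was most like the enzymes' mean, each enzyme scaled to mean 0 and SD 1, were HSDL2 (r = 0.93), ENSSSCG00000010442 (0.91), SLC25A20 (0.91), ACAD11 (0.90), ACADL (0.90), LYPLA1 (0.90), ACSL1 (0.89) and RETSAT (0.89). ACSL1 activates long-chain fatty acids, and RETSAT is a retinol saturase. These genes were picked on the same libraries, so a rise under oil is built into their choice.

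Some properties of the libraries moved with the diets. Read pairs that fell on no gene made up 8.18 to 10.9 percent in OO and 11.2 to 18.4 in the control pigs, which do not overlap, 6.83 to 12.2 in PFA and 10.2 to 13.4 in OO + PFA. With this percent as a term in the fit, ACADVL and HADHA stayed called in OO against control, and ACAA2 (log2 fold change 1.49, adjusted p = 0.219), HADHB (0.59, adjusted p = 0.210) and ETFDH (0.49, adjusted p = 0.179) did not. In that fit 76 genes were called in either direction instead of 375. Titles of liver libraries start with PigLiv or with PL, unevenly over the diets. Of the libraries used, C-80, C-85, P-75, P-95, P-134, OO-88, OO-97, OO-130 and OP-137 had PL. With title form as a term, 5 enzymes were called in OO against control. The same fit called 4 in OO + PFA against control and 3 in OO + PFA against PFA.

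The dependence of a library's log2 CPM on gene GC content also differed. Its slope per 10% GC was -0.62 in OO-97, -0.59 in OO-74 and -0.39 in OO-88 but 0.05 to 0.17 in the other 3 OO pigs, against -0.45 to -0.16 in the control pigs. It was -0.20 to 0.24 in the OO + PFA and -0.72 to -0.18 in the PFA pigs. GC content of the exons was 35.9% in DECR1 and 37.4% in ACADM but 59.3% in ACADVL and 59.5% in ACADS. OO-97 was the lowest OO pig in ACADVL and ACADS and the highest in ACADM and DECR1. With the slope as a term, chosen after the data were seen, 7 enzymes were called in OO against control, with ACADM at a log2 fold change of 0.76 (adjusted p = 0.00123) and ACADS at 0.42 (adjusted p = 0.0401). The same term took ACADM in OO + PFA against control from 0.41 (adjusted p = 0.204) to 0.73 (adjusted p = 0.00817), and the GC correction gave it 0.45 (adjusted p = 0.0483). It took ETFDH to 0.61 (adjusted p = 0.0198) in OO + PFA against PFA, and the genes called in either direction went from 218 to 88.

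Marker levels overlapped between the diets. The summed level of the 7 hepatocyte markers was 97163 to 182446 CPM in the control, 127315 to 232287 in the PFA, 108380 to 147569 in the OO and 116135 to 141988 in the OO + PFA pigs. The 5 macrophage markers summed to 215 to 788 CPM in control, 351 to 870 in PFA, 594 to 906 in OO and 395 to 1093 in OO + PFA, with none of the 5 at 0 or called in OO against control. In that comparison the markers that could be tested were 3 of 4 of cholangiocytes, 4 of 5 of stellate and endothelial cells, 5 of 5 of leukocytes, 2 of 7 of enterocytes, 5 of 5 of smooth muscle and 3 of 3 of erythroid cells, and none of these was called. All 5 macrophage markers had fitted values above 0 in OO against control (median log2 fold change 0.59). So had 3 of the 7 hepatocyte markers (median -0.10) and 7978 of all 13831 genes tested. The part of any of these markers in the results was not tested.

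Pig OP-77 stood apart in the enzymes too. On the scale of all 24 liver libraries it was at 64.1 CPM in ACADM, 59.2 in HADHB, 60.3 in ETFDH and 78.8 in DECR1, while the lowest of the other OO + PFA pigs, on the scale of 23 libraries, were at 269, 191, 124 and 173. It was at 283 in ACADVL and 284 in HADHA. With OP-77 included, 3 enzymes were called in OO against control and 2 in OO + PFA against control: ACADVL and HADHA in both, and ACAA2 in OO. In OO the log2 fold changes stayed at 0.86 for HADHB and 0.69 for ETFDH, and the adjusted p became 0.0641 and 0.0517. In OO + PFA they became 0.54 (adjusted p = 0.150) and 0.36 (adjusted p = 0.202). In OO + PFA against PFA, HADHB was no longer called (adjusted p = 0.164) and ACADS was (0.0435).

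In the ileum no enzyme was called between PFA and control, nor was any gene (0% of 14300; 401 genes at an unadjusted p under 0.05, 0 of them an enzyme; 4 genes by DESeq2, none an enzyme). Log2 fold changes ran from -0.23 in ACADS to 0.22 in ACADM. HADHB was at 231, 195, 214, 188 and 240.3 CPM in C-100, C-110, C-71, C-80 and C-92. In the PFA pigs it was at 226 in P-107, 203 in P-134, 223 in P-75, 217 in P-95 and 315 in P-138, so that all but P-138 lay within the control range. P-138 was also the highest PFA pig in ACADM, HADHA, HADH, ACAA2, DECR1 and ETFDH, and the log2 fold change of HADHB was 0.15 (SE 0.13, adjusted p = 0.991).

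With both tissues scaled together, all 9 enzymes were lower in the ileum than in the liver of the 10 pigs with both. On this joint scale 37.5% of 14982 genes were called lower. Per pig, DECR1 was lower by between 3.09 in P-138 and 4.27 in P-95 on the log2 scale (median difference -3.68). The fitted difference was -3.70 (SE 0.16, adjusted p = 7.40e-15), or 13.04-fold. ACAA2 (-3.14, SE 0.22) and ACADS (-2.91, SE 0.13) followed, and then HADH (-1.79), ETFDH (-1.74), ACADM (-1.57) and ACADVL (-1.07). In these 7 genes each of the 10 pigs had the lower value in the ileum, and the ranges of the tissues did not overlap. Scaled within each tissue, however, HADHA averaged 249.6 CPM in control ileum and 180.5 in control liver, HADHB 213.6 and 142.6, and ACADVL 93.0 and 90.8. The lower ileum values of HADHA, HADHB and ACADVL thus depend on the joint scaling. The other enzymes averaged lower in the control ileum on both scales. The 10 most abundant genes took 12.5% to 16.2% of ileum and 23.8% to 34.8% of liver counts.

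On the joint scale the trifunctional protein differed least. HADHA was lower in the ileum of 9 of 10 pigs (log2 difference -0.51, SE 0.10, adjusted p = 1.70e-04) and HADHB of 8 of 10 (-0.44, SE 0.13, adjusted p = 0.00421), and P-138 had the higher value in the ileum in both, by 0.00384 in HADHA and 0.16 in HADHB. With pig as a replicate block all 9 stayed lower, with log2 differences from -3.68 in DECR1 to -0.42 in HADHB. The ileum libraries carry another form of title and had 18.2% to 21.4% of read pairs on no gene, so tissue and library series cannot be told apart. The change with PFA did not differ between the tissues for any gene (0% of 14982; 739 genes at an unadjusted p under 0.05, 0 of them an enzyme; 0 genes by DESeq2), and its largest value among the enzymes was -0.32 in DECR1 (SE 0.29, adjusted p = 0.978).

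**Figure D4:**
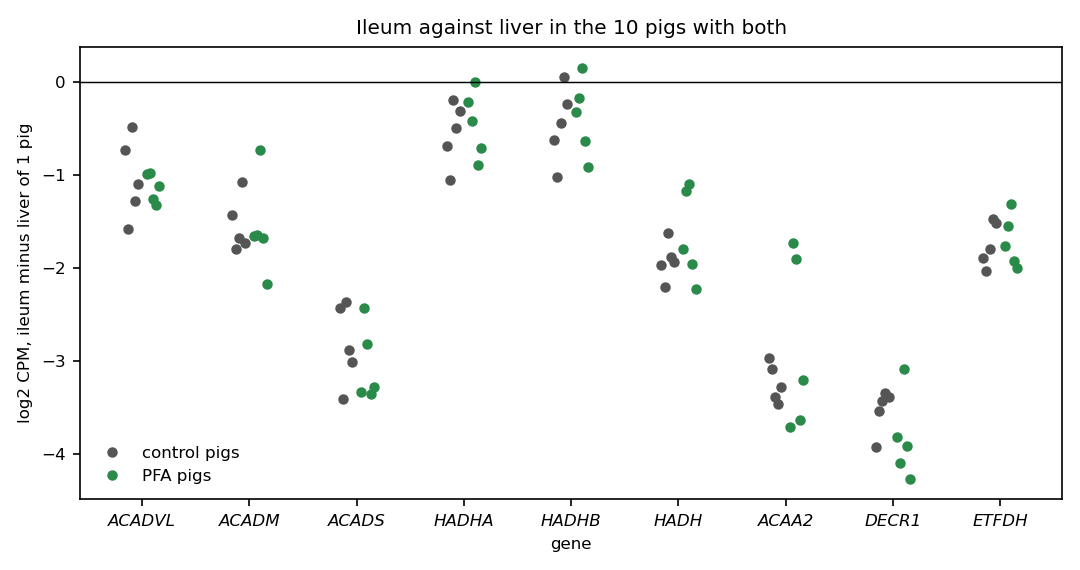
Difference of log2 CPM between ileum and liver of the same pig (vertical axis) for each enzyme (horizontal axis), with 5 control and 5 PFA pigs as points. Libraries of both tissues were scaled together. Points lie below 0 in all 10 pigs for 7 enzymes, and HADHA and HADHB lie nearest to 0 with 9 and 8 pigs below it.

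Levels of different genes were compared per kilobase of exon, with the union of RefSeq exons as length. In the control liver HADH was highest at 151 ± 23.3 CPM per kb (SD, n = 6), followed by ACADM at 134 ± 30.2, ACAA2 at 124 ± 31.1, DECR1 at 108 ± 18.9, ACADS at 70.6 ± 9.98, HADHA at 66.6 ± 13.6, HADHB at 59.8 ± 13.9 and ETFDH at 43.1 ± 6.01. ACADVL was last at 19.2 ± 3.25. Each neighbour in this order overlapped the next except ETFDH and ACADVL. The length of ACADVL, 4729 bases, is the union of 4 annotated transcripts, and a shorter one in liver would raise its level.

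Under OO the order changed at its upper end and in its middle, where DECR1 went from rank 4 to 7, and ETFDH and ACADVL stayed last. ACAA2 was highest at 432 ± 173 CPM per kb (SD, n = 6), ACADM was next at 211 ± 53.6, and ACADVL at 52.2 ± 14.8 overlapped ETFDH at 69.5 ± 9.20. HADH, highest in control liver, was at 124 ± 9.48, after HADHA at 142 ± 33.5. Together the 9 enzymes took 0.118% to 0.183% of the counts in control, 0.138% to 0.186% in PFA, 0.2105% to 0.291% in OO and 0.2196% to 0.2485% in OO + PFA livers, and 0.0925% to 0.136% in the ileum.

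In the control ileum ACADM was highest at 97.1 ± 22.5 CPM per kb (SD, n = 5, scaled within the ileum), with HADHA at 92.0 ± 12.0, HADHB at 89.6 ± 9.41 and HADH at 82.7 ± 10.4 overlapping each other in that order. ACAA2 followed at 30.4 ± 4.43, below every pig of HADH. ETFDH was at 27.0 ± 2.23, ACADS at 20.7 ± 4.54, ACADVL at 19.7 ± 4.65 and DECR1 at 19.6 ± 2.39, each overlapping its neighbour. DECR1 thus came after 3 of the others in the control liver and last in the control ileum.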

How the data were processed

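The members and the gene lists were chosen with earlier results of these data known. RNA of 24 liver and 10 ileum samples was sequenced from stranded poly(A) libraries. The authors aligned the reads with STAR 2.6.1d to Sscrofa11.1 and deposited HTSeq counts of read pairs per Ensembl gene, without normalization, which lets the few most abundant liver genes set much of a library's total. The strand setting and the annotation release are not given in the sources used here. Of the read pairs, 13.5% to 36.7% per library had no unique gene and were left out of library sizes. Symbols came from a gene name table (14857 of 25880 genes), positions, lengths and GC content from RefSeq's annotation of the same assembly. GC content was known for 79.7% of liver genes tested, under 80%, so the GC correction (lowess, span 0.5) was made in those genes alone.

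The tests used R 4.3.3 with limma 3.58.1 and edgeR 4.0.16 (filterByExpr, TMM, glmQLFit, glmQLFTest), with 23 liver libraries in 1 fit, 10 ileum libraries in another and 20 libraries of 10 pigs for the tissues. Log2 CPM used a prior count of 2. Steps were tested on simulated data. The named genes are the 10 enzymes, all of the list of other mitochondrial beta-oxidation genes and, of each further list, at most the 3 genes with the smallest p in OO against control, with the 8 genes most like the enzymes in pattern. CRAT, CPT1B and PPARGC1B are outside this rule and were named after their values were seen. Libraries of a group are separate pigs. Same-numbered ileum and liver libraries come from the same pig by their titles, with correlations of deviations from -0.18 to 0.46. Alternatives were DESeq2 1.42.0, RLE scaling, a minimum of 10 counts in each library or no filter, all 24 liver libraries, title form, percent on no gene or GC slope as a term, a GC correction, the 2 diets alone, a fold change of at least 2, pig as replicate block, and leaving out each library in turn. Tables and figures were made with Python 3.11.15 and matplotlib. Proteins, enzyme activities and growth were not analysed here.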

Additional observations from a re-analysis of the deposited data

Results flagged for a closer look

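In 54 groups of pigs (9 enzymes in 6 combinations of tissue and diet), 1 value lay far from the rest of its group: HADHB in the ileum of P-138, at 315 CPM. The next PFA pig was P-107 at 226 CPM, and the gap was 0.796 of the group's whole range, above Dixon's critical value of 0.71 for 5 pigs. Chance flags about 1 in 20 groups.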

How the results depend on the processing

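The number of enzymes called in OO against control, 5, was 3 with all 24 libraries, 2 with the percent of pairs outside genes as a term and 3 with a fold change of at least 2. In OO + PFA against control, 4 became 2 with all 24 libraries and 1 with a fold change of at least 2. In OO + PFA against PFA, 3 became 5 with DESeq2 and 1 with a fold change of at least 2. Leaving out each library in turn gave 5 to 6, 3 to 5 and 2 to 4 for these comparisons, 5 to 6 over the 4 diets, 9 for ileum against liver and 0 for the comparisons without a call. With pig as replicate block 9 enzymes were called in ileum against liver and 0 for the difference of the PFA effects, so the paired fit changed no call. Of 2490 alternatives of single enzymes and of their medians, 2434 changed no call, 31 lost and 25 gained the call, and no called value reversed. The 2434 include 69 uncalled values that changed sign. They also include the medians, which have no call and moved by less than 0.317 on the log2 scale. The number of all genes called in OO against control, 375, was 1079 with DESeq2, 1080 with the GC slope as a term, 875 with the GC correction, 224 with all 24 libraries, 194 with the 2 diets alone, 153 with a fold change of at least 2, 167 without OO-130 and 1325 without OO-97. In OO + PFA against control, 702 became 1370 with DESeq2, 1530 with all 24 libraries, 1690 with the 2 diets alone, 453 with a fold change of at least 2, 191 without C-71 and 1127 without OO-97. In OO + PFA against PFA, 218 became 697 with DESeq2, 1225 with all 24 libraries, 963 with the 2 diets alone, 135 with the percent of pairs outside genes, 88 with the GC slope, 133 with a fold change of at least 2, 103 without OP-137 and 411 without P-138. Over the 4 diets, 506 became 1776 with DESeq2, 1113 with all 24 libraries, 325 with the percent of pairs outside genes and 848 with the GC correction, and 297 without C-85 and 1450 without OO-97. The causes were not tested.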
